A study of Mus musculus with 6 samples.

Results

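The 9 genes described here encode progenitor and lineage factors of the olfactory epithelium: Neurog1, Neurod1, Insm1, Hes6, Kit, Sox2, Pax6, Lgr5 and Trp63. They were chosen by symbol for their known roles in this lineage, and all 9 had a row among the 24315 rows of the expression table. RNA-seq was carried out on whole olfactory mucosa of wild-type C57BL/6 mice at postnatal day 11, in which 1 nostril had been closed. The 3 closed libraries came from the closed side of mice 1, 2 and 3, and the 3 open libraries from the open side of the same mice. Unoperated mice were not analysed here, and when the closure was made is not given in the sources used here. Libraries held 24958172 to 43584803 reads, of which 93.28% to 96.99% aligned. Closed replicate 1 was the shallowest and had the highest share of its summed FPKM in small RNA rows, at 11.3%, while the remaining libraries had from 3.47% to 5.27%.

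The olfactory epithelium replaces its sensory neurons throughout life from basal cells. Horizontal basal cells, which depend on the p63 protein, are a reserve of stem cells, and globose basal cells divide to give neurons. In rodents, the globose cells pass through stages marked by transcription factors, among them Neurog1 and Neurod1, before they become immature and then mature neurons. Neurogenin 1 is a proneural helix-loop-helix factor, and Neurod1 acts after it. Closing a nostril deprives that side of odor-laden air, and the comparison of sides asks which transcripts differ with closure. Dependence on olfactory activity as such was not tested.

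The bases before the transcription start are shown for 3 members whose levels followed each other across the libraries, though shared regulation was not tested. Sox2, Pax6 and Kit also shared an order of mice, and their bases are not shown. Neurogenin and NeuroD proteins bind E-boxes, which have the letters CANNTG on either strand. Capitals mark the matches to CANNTG. The sequences come from RefSeq (GRCm38.p6), and run 5′ to 3′. For Hes6 they cover chr1:91414039-91414288 (minus strand), for Neurod1 chr2:79456786-79456886 (minus strand), and for Neurog1 chr13:56252181-56252430 (minus strand). The Hes6 run lies before the first of its 2 annotated starts. The Neurod1 run is the 101 bases farthest from its start, because an annotated exon covers the others.
Hes6: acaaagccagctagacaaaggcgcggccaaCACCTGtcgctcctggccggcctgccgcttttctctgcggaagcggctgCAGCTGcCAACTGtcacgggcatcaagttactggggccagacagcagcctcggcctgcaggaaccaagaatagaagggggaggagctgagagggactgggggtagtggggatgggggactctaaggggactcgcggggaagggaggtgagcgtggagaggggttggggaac
Neurod1: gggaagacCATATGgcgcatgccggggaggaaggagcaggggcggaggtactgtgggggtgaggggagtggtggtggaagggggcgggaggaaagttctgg
Neurog1: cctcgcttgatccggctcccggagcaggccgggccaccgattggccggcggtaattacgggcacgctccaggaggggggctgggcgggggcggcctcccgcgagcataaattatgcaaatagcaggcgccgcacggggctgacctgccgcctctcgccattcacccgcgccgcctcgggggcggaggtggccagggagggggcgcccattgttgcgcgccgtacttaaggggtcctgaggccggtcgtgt

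In the 250 bases before the start, Hes6 held 3 matches at its first start and 1 at its second, Neurod1 held 1 and Neurog1 held 0. Such a match is common, since 66.2% of all 32851 promoter windows of this length held at least 1. The form CAGCTG, the second of those before Hes6, was in 13% of the windows. Of the 9 genes, 6 had an entry among the promoter sequences.

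The 9 genes spanned a wide range of expression. The values are FPKM, that is fragments scaled by transcript length and by the number of mapped fragments, so levels of different genes can be set side by side. Hes6, a helix-loop-helix factor that opposes Hes1 in the mouse, had the highest mean over the 6 libraries, 147 FPKM. Insm1, a zinc finger factor of neuronal and endocrine progenitors, followed with 85.3 FPKM. Sox2, a factor of stem and supporting cells, averaged 38.0 FPKM, Neurog1 19.3 FPKM and Neurod1 17.7 FPKM. Below them lay Pax6, a homeodomain factor of the eye and nose, at 12.5 FPKM, and Kit, a receptor tyrosine kinase of dividing progenitors, at 10.7 FPKM. Trp63, which encodes p63, averaged 6.07 FPKM, and Lgr5, a receptor for R-spondins, 2.24 FPKM. All 9 passed the floor of a mean of 1 FPKM used for testing, Lgr5 ranking above only 12.1% of the 14788 rows tested and Hes6 above 96.1%.

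The order of the 9 levels was nearly the same in every library. Insm1 and Hes6 overlapped in range over the 6 libraries, as did Neurod1 and Neurog1, and Kit and Pax6. The other neighbours in the order did not overlap. Neurog1 exceeded Neurod1 in 5 of 6 libraries, by a mean ratio of 1.09, and all other neighbours kept their order in 6 of 6.

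**Figure D1:**
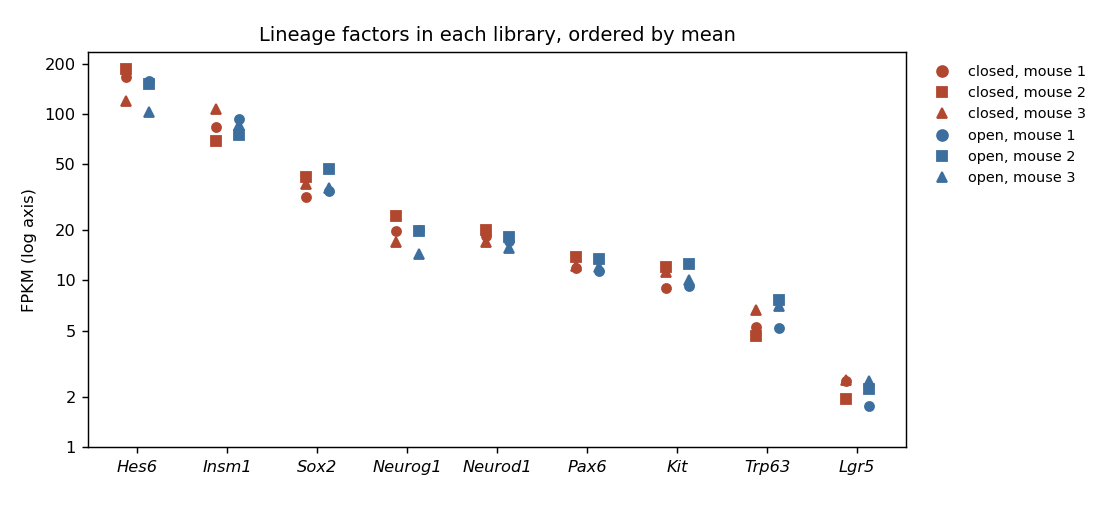
FPKM of the 9 lineage factors on a log axis, ordered by mean. Each symbol is 1 library, with the closed side in red and left of the open side in blue, and the shape gives the mouse. Hes6 (101.8 to 185.8 FPKM) stands at the top and Lgr5 (1.76 to 2.54 FPKM) at the bottom on both sides.

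None of the 9 genes passed the test for a difference between the closed and the open side. In limma, a linear model fitted to log2(FPKM + 1) over all 14788 rows, 0 of 9 passed an adjusted p of 0.05, against 0.0473% of all rows tested. At an unadjusted p under 0.05 there were also 0 of 9, against 1.45% of all rows (0.588% higher and 0.866% lower on the closed side). With the mouse as a block the counts were again 0 and 0, where 0.0338% and 2.37% of all rows were called. The sides overlapped in all 9 genes, whereas they were apart in 3.37% of all rows. The gene used to check the series, S100a5 of olfactory sensory neurons, fell to 249 ± 47.1 FPKM on the closed side, against 2017 ± 77.2 FPKM on the open side (SD, n = 3 each), a log2 change of -3.03 (limma adjusted p = 0.000888). In bulk tissue, fewer cells of a type and less RNA per cell cannot be told apart.

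Among the factors of stem and basal cells, Trp63 had the lowest log2 change. In mice 1, 2 and 3 it stood at 5.29, 4.63 and 6.66 FPKM closed and at 5.19, 7.60 and 7.05 FPKM open. Most of the gap came from mouse 2, whose sides differed by -0.61 on the log2(FPKM + 1) scale, while those of mice 1 and 3 differed by 0.02 and -0.07. The means were 5.53 ± 1.03 FPKM closed and 6.62 ± 1.26 FPKM open (SD, n = 3 each). The fitted log2 change was -0.22 (SE 0.17, 95% interval -0.61 to 0.17), and it was -0.02 without mouse 2, -0.12 without either library of mouse 2, -0.36 without open replicate 1, and -0.34 without closed replicate 3 or mouse 1.

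Sox2 is expressed by horizontal basal, globose basal and supporting cells. It measured 31.7, 41.9 and 37.75 FPKM closed in mice 1, 2 and 3, against 34.5, 46.4 and 35.98 FPKM open. The lower value was on the closed side in mice 1 and 2 and on the open side in mouse 3. Its log2 change was -0.06 (SE 0.15, interval -0.41 to 0.28), and it turned to 0.0418 without closed replicate 1 and to 0.0652 without open replicate 2. Pax6, found in many of the same cells, had the narrowest range of the 9 over the 6 libraries, a ratio of highest to lowest of 1.21, with 11.9, 13.8 and 12.2 FPKM closed against 11.4, 13.4 and 12.1 FPKM open. Each of the 3 mice had its higher value on the closed side, by 0.01 to 0.05 on the log2(FPKM + 1) scale, and the fitted change was 0.03 (SE 0.11, interval -0.23 to 0.29). It turned to -0.0275 without closed replicate 2 and to -0.0156 without open replicate 1.

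Lgr5 marks a subset of globose basal cells and was low throughout. It read 2.49, 1.94 and 2.54 FPKM closed and 1.76, 2.22 and 2.50 FPKM open in mice 1, 2 and 3. The sides took different orders in the 3 mice, and the log2 change was 0.07 (SE 0.15, interval -0.27 to 0.42). It turned to -0.02 without open replicate 1 and to -0.0586 without mouse 1. At this level the pseudocount of 1 reduces any fold. Kit stood at 8.9755, 11.9659 and 11.1946 FPKM closed, against 9.24571, 12.5387 and 10.0995 FPKM open. Its mean was 10.7 ± 1.55 FPKM closed and 10.6 ± 1.71 FPKM open (SD, n = 3 each), with a log2 change of 0.01 (SE 0.15, interval -0.33 to 0.36). The sign turned without closed replicate 2 or 3, open replicate 1 or 3, or mouse 3, to -0.0747 at the lowest.

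Among the factors of committed neuronal precursors, Hes6, Neurog1 and Neurod1 had the highest log2 changes of the 9 without passing the test. Hes6 read 165.5, 185.8 and 118.6 FPKM closed in mice 1, 2 and 3, against 157.3, 151.6 and 101.8 FPKM open. The closed value was the higher in each of the 3 mice, yet the difference between mice 2 and 3 on either side was larger than that between sides. Its mean was 157 ± 34.5 FPKM closed and 137 ± 30.5 FPKM open (SD, n = 3 each). The log2 change of 0.19 (SE 0.22, interval -0.31 to 0.70) was the highest of the 9, with an unadjusted p of 0.403 in limma and 0.121 with the mouse as a block. Without open replicate 3 it was -0.00433.

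Neurog1 measured 19.9, 24.2 and 17.1 FPKM closed in mice 1, 2 and 3, against 20.1, 19.8 and 14.5 FPKM open. Its sides were nearly level in mouse 1, where they differed by -0.02 on the log2(FPKM + 1) scale, and the closed side was higher by 0.28 in mouse 2 and 0.23 in mouse 3. The log2 change was 0.16 (SE 0.17, interval -0.22 to 0.55). It was 0.0155 without open replicate 3, 0.0362 without closed replicate 2 and 0.28 without closed replicate 3. Neurod1, with 18.4, 19.9 and 17.0 FPKM closed against 17.2, 18.2 and 15.7 FPKM open, was higher on the closed side in every mouse by a similar step of 0.09, 0.13 and 0.11. With the block its SE was 0.0904, which limma draws toward that of rows of like level. The log2 change was 0.11 (SE 0.11, interval -0.14 to 0.36), with an unadjusted p of 0.348 in limma and 0.272 with the block. It was 0.0542 without closed replicate 2, 0.055 without open replicate 3 and 0.16 without closed replicate 3.

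Insm1, which in the mouse drives the divisions that end in neurons, had both sides nearly level on average. It stood at 83.0, 69.0 and 106.6 FPKM closed and at 92.8, 74.6 and 86.0 FPKM open. The closed side was the lower in mice 1 and 2 and the higher in mouse 3. Its log2 change was 0.01 (SE 0.17, interval -0.38 to 0.41), and it was 0.16 without closed replicate 2. It turned to -0.15 without closed replicate 3, to -0.0726 without open replicate 2 and to -0.134 without mouse 3.

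**Figure D2:**
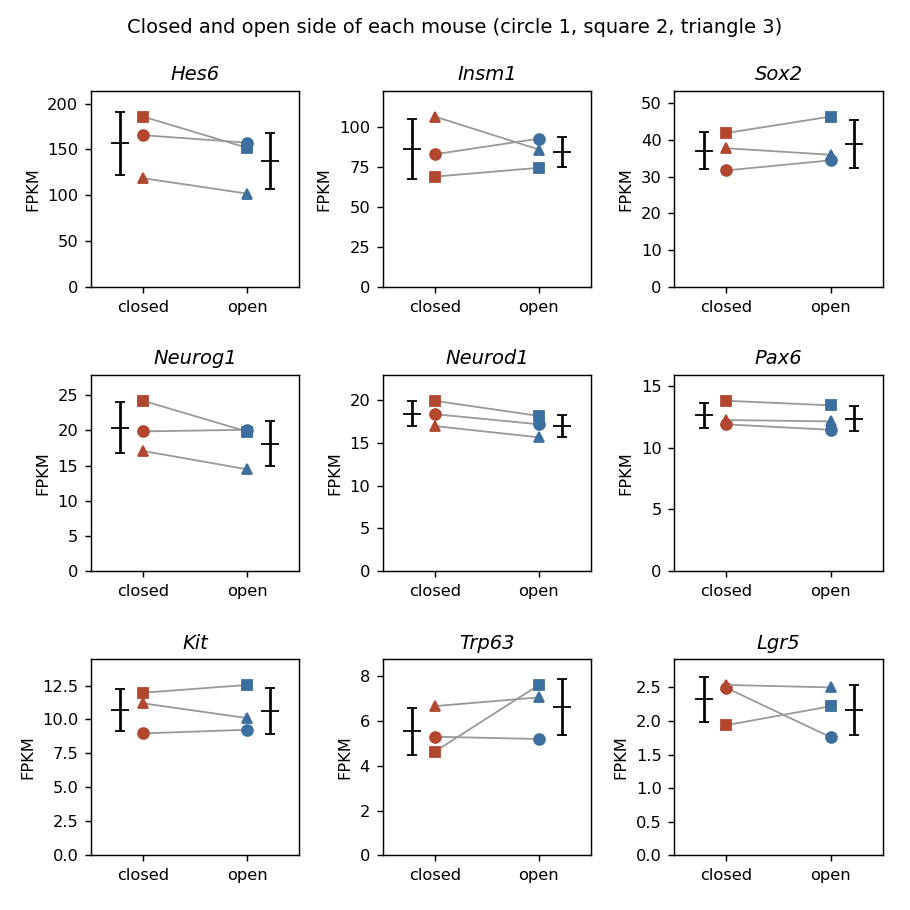
FPKM of each gene on the closed (left) and open (right) side, with a grey line joining the sides of 1 mouse and black bars giving the mean ± SD of 3 libraries. The sides overlap in all 9 panels, and the lines of Hes6, Neurod1 and Pax6 run lower toward the open side in each of the 3 mice.

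Counted together, 7 of the 9 genes had a log2 change above 0 and 2 below it, where 46% of all rows tested were above 0. The median change was 0.03, against -0.01 over all rows, and the median absolute change was 0.07, against 0.06. In 3 of 9 genes (Hes6, Neurod1 and Pax6) all 3 mice had the higher value on the closed side, as in 7.41% of all rows. None was lower in 3 of 3 mice, which 9.18% of all rows were. On the log2(FPKM + 1) scale the intervals ran from 0.654-fold for Trp63 at the low end to 1.625-fold for Hes6 at the high end. Changes as large as that of S100a5 lay outside the intervals of all 9 genes, and smaller ones within them were not excluded by this fit of 3 libraries per side. The intervals are unadjusted and come from the fit without the block, which leaves the spread among mice in the error. They are not limits of detection at the adjusted threshold.

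**Figure D3:**
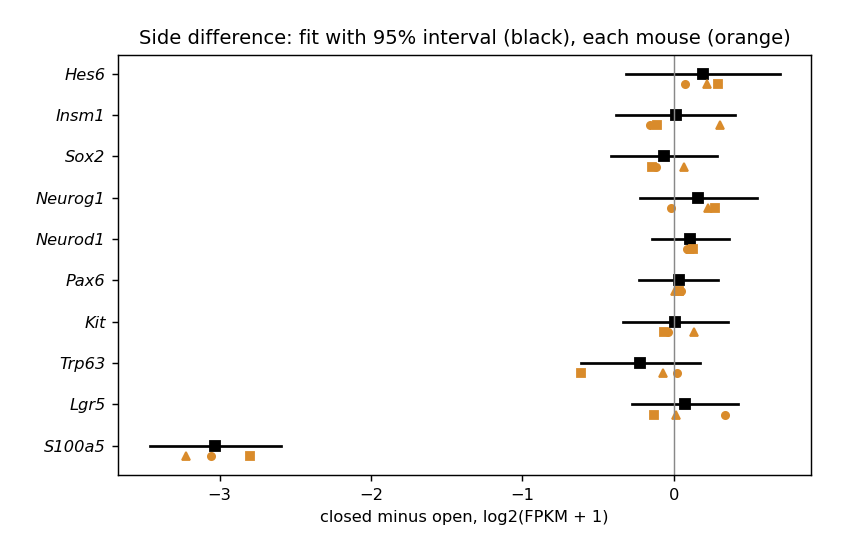
Closed minus open on the log2(FPKM + 1) scale for the 9 lineage factors and S100a5. Black squares and lines are the limma estimate with its 95% interval, and orange symbols are the mice (circle 1, square 2, triangle 3). All 9 intervals span 0, whereas that of S100a5 runs from -3.46 to -2.60.

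Levels also differed among the mice. A range over 3 mouse means tends to be wider than a difference of side means, so mouse was not ranked over side. The median ratio of the highest to the lowest mouse mean was 1.33 for the members and 1.21 for all rows tested. Whether handling shared by the libraries of a mouse played a part was not tested. Hes6, Neurog1 and Neurod1 were lowest in mouse 3 on both sides. The mean of both sides of Hes6 was 161 FPKM in mouse 1, 169 FPKM in mouse 2 and 110 FPKM in mouse 3, and that of Neurog1 was 19.98, 22.02 and 15.78 FPKM. Insm1 showed another order, with its lowest mean in mouse 2 (71.8 FPKM) and its highest in mouse 3 (96.3 FPKM). Sox2, Pax6 and Kit were highest in mouse 2 and lowest in mouse 1 on both sides.

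This comparison of mice was chosen after the values had been seen. In the blocked limma fit, 3 of 9 genes had an unadjusted p under 0.05 for a difference among mice, against 8.65% of all rows. The limma F test gave an unadjusted p of 0.00693 for Hes6, 0.0296 for Neurog1 and 0.0362 for Sox2. None passed after adjustment over all rows (adjusted p = 0.569 for each of these), as only 0.0811% of all rows did. The count was 0 without closed replicate 3 (2.49% of all rows), 1 without closed replicate 2 (Hes6, against 9.85% of all rows) and 1 without open replicate 3 (Insm1, against 4.49% of all rows). Among genes of dividing cells, 8 of 18 had an unadjusted p under 0.05 for a difference among mice, as did 4 of 9 of the respiratory epithelium, 5 of 13 of mature neurons and 4 of 14 of immature neurons. The remaining lists ran from 0 of 11 for sustentacular cells to 3 of 7 for brain cells. The other neuronal lineage factors had 2 of 23 and the Wnt and R-spondin pathway 3 of 28, against 8.65% of all rows. The summed level of the dividing cell genes was 374.7 closed and 382.8 open in mouse 1, 499.7 closed and 427.4 open in mouse 2, and 338.4 closed and 346.3 open in mouse 3 (FPKM). Their part in the differences among mice was not tested.

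**Figure D4:**
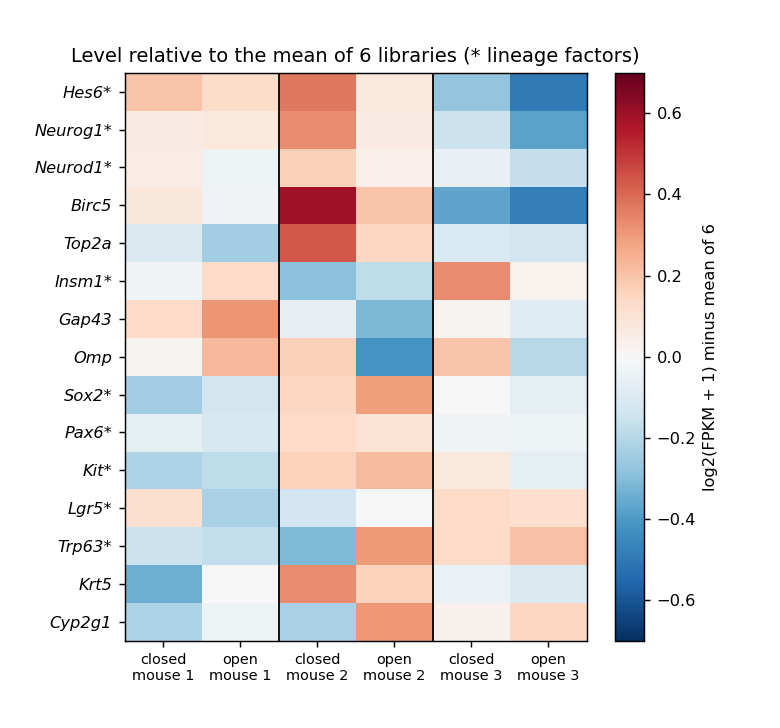
Level of each gene in each library minus its mean over the 6 libraries, on the log2(FPKM + 1) scale (colour bar). Columns are grouped by mouse with the closed side left of the open side, and asterisks mark the 9 lineage factors. Hes6 and Neurog1 are below their mean in both libraries of mouse 3, and Sox2, Pax6 and Kit are above it in both of mouse 2.

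Ratios within a library show how far the members kept step. Hes6 over Neurog1 stayed between 6.94 and 8.34 in the 6 libraries, with 7.65 ± 0.698 closed and 7.505 ± 0.414 open (SD, n = 3 each). Neurog1 over Neurod1 ran from 0.924 to 1.21, with 1.10 ± 0.105 closed and 1.06 ± 0.126 open. Sox2 over Pax6 ran from 2.67 to 3.46. Hes6 over Insm1 was the widest, from 1.11 in the closed library of mouse 3 to 2.69 in that of mouse 2. In each of these ratios the sides overlapped.

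For each member the rows most like it over the 6 libraries were sought among 10123 others (10124 for Lgr5), by Pearson's r of log2(FPKM + 1). With 6 libraries from 3 mice and so many rows, high values of r are to be found for nearly any gene, and they are given as a description. Nearest to Neurog1 was Mcm7, a subunit of the replicative helicase (r = 0.995). Gins4, of the replication fork (r = 0.989), and Cdc25b, a phosphatase that activates cyclin-dependent kinases (r = 0.97), were nearest to Neurod1. Hes6 was matched most closely by Tk1, a thymidine kinase of S phase (r = 0.992), and Cog4, of the Golgi (r = 0.992). Reps1 (r = 0.995) and Eya3 (r = 0.988) came nearest to Insm1, and Zfp503 (r = 0.974) and the hexokinase Hk2 (r = 0.973) to Kit. For Sox2 they were Tmem30b (r = 0.982) and Ttc23 (r = 0.975), and for Pax6 the cell cycle kinase Wee1 (r = 0.986) and Chid1 (r = 0.985). Lgr5 was nearest to Fnip1 (r = 0.99) and Rnf141 (r = 0.983), and Trp63 to Cstf2 (r = 0.996) and Lmtk2 (r = 0.992).

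No other transcription factor of the neuronal branch passed the test either. Of 26 listed, 23 reached the floor, 0 were called and 0 had an unadjusted p under 0.05. Their median log2 change was 0.08, with 18 above and 5 below 0. The sides were apart in 1 of these 23, against 3.37% of all rows tested. That gene was Bcl11a, with 27.9 ± 1.90 FPKM closed and 25.3 ± 1.07 FPKM open (SD, n = 3 each; log2 change 0.13, unadjusted p = 0.221 in limma). The homeobox genes Dlx5 and Dlx6, next to each other in the genome, stood at -0.17 and -0.16. Neurog2, a relative of Neurog1, was listed at 0 in 5 libraries and at 0.0146 FPKM in the open library of mouse 3.

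In the Notch pathway, through which neighbouring progenitors hold each other back from becoming neurons, 0 of 31 genes were called and 0 had an unadjusted p under 0.05. The median log2 change was -0.06, with 9 above and 22 below 0. Hes1, the Notch target that Hes6 opposes, measured 24.1, 27.8 and 22.3 FPKM closed against 25.2, 31.2 and 28.2 FPKM open. Each of the 3 mice had its lower value on the closed side (log2 change -0.18, SE 0.13, unadjusted p = 0.181 in limma). The Notch target Hey2 stood at -0.27, and the ligand Jag2, also on the horizontal basal cell list, at 0.19.

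Genes of the Wnt and R-spondin pathway, in which Lgr5 acts, had a median log2 change of -0.10, with 4 above and 24 below 0 among the 28 that reached the floor. None was called and none had an unadjusted p under 0.05. Sides were apart in 1 of the 28, against 3.37% of all rows tested. It was the Wnt receptor Fzd2, at 11.0 ± 0.984 FPKM closed and 12.8 ± 0.788 FPKM open (SD, n = 3 each; log2 change -0.20, unadjusted p = 0.111 in limma). Lgr6, a relative of Lgr5, had a log2 change of -0.37 (unadjusted p of 0.155 in limma and 0.0486 with the block) and Fzd1 one of -0.24. Lgr4, the third of these receptors, was higher than Lgr5, which stood at 0.112 to 0.157 of the Lgr4 level in FPKM.

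Of 16 genes around the Kit receptor 0 were called and 0 had an unadjusted p under 0.05, with a median log2 change of -0.04. Kitl, the ligand of Kit, read 8.30, 10.11 and 10.11 FPKM closed against 7.03, 12.5 and 10.6 FPKM open (log2 change -0.05, SE 0.19). Stat5a, a signal transducer, was lower on the closed side with sides apart (1.37 ± 0.0360 FPKM closed, 1.69 ± 0.177 FPKM open; SD, n = 3 each; unadjusted p = 0.206 in limma), and Gab2 and Socs1 stood at -0.22 and -0.17. Stat5a was the 1 gene of the 16 with sides apart, against 3.37% of all rows tested. Among the 12 genes of the corepressor complex with which Insm1 acts, 0 were called, 0 had an unadjusted p under 0.05 and the median was 0.02. Rcor2 stood at 0.23, Rcor3 at -0.16 and Gse1 at 0.09.

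**Figure D5:**
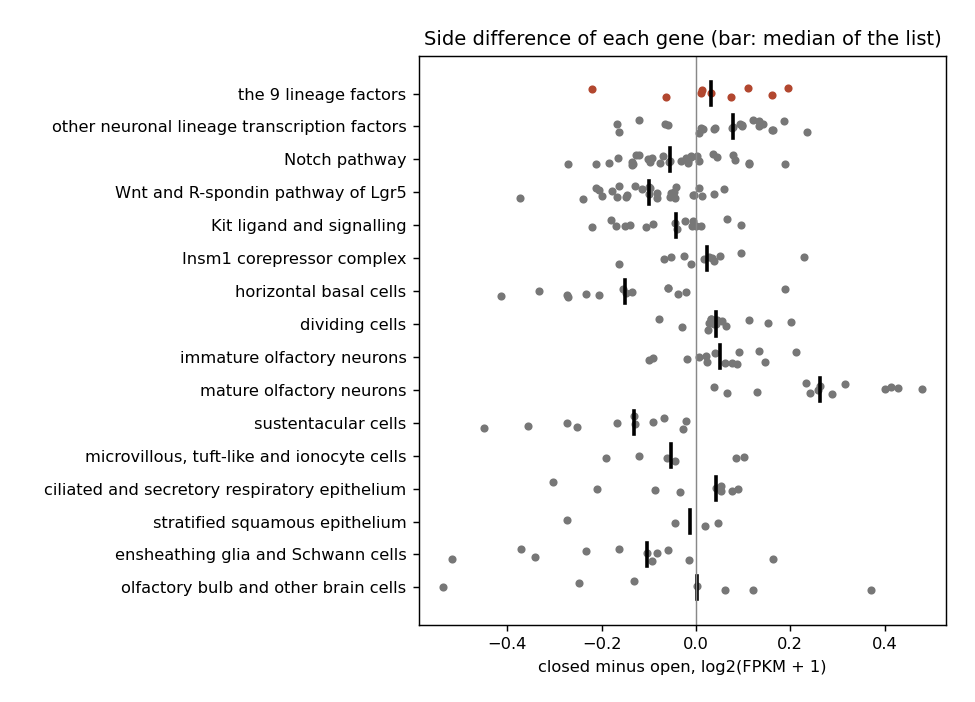
Closed minus open on the log2(FPKM + 1) scale for each gene that reached the floor of 1 FPKM, by list. Each point is a gene, and the black bar is the median of the list. The 9 lineage factors (red) lie between -0.22 and 0.19. Lists with fewer than 3 such genes are left out, as are the gland genes, which reach -5.48.

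Marker genes of the cells that hold these factors were read beside them. Among genes of horizontal basal cells, which hold Trp63, 13 of 14 were below 0 with a median of -0.15, and 0 were called. Icam1 had a log2 change of -0.27 with an unadjusted limma p of 0.0485, which was 0.0671 with the mouse as a block. Perp, a p63 target, stood at -0.33 (unadjusted p of 0.0675 in limma and 0.0108 with the block), Krt15 at -0.41 (0.341 and 0.0433) and the keratin Krt14 at -0.27. The keratin Krt5 stood at -0.04 (unadjusted p = 0.83 in limma) and was higher on the closed side in mice 2 and 3. Cd44 and Lamb3 were at -0.06, Dst at -0.02 and Jag2 at 0.19. For dividing cells 16 of 18 genes were above 0 and the median was 0.04, with 0 called and 0 under 0.05 unadjusted. Among them were Birc5 at 0.20, Top2a at 0.15 and Plk1 at 0.11. For immature neurons the figures were 11 of 14 and 0.05, again with 0 called and 0 under 0.05 unadjusted. Dcx stood at 0.21, Dpysl5 at 0.15 and Crmp1 at 0.13, while Gnas at -0.10, Ncam1 at -0.09 and Stmn2 at -0.02 were below 0. Closed against open, the immature neuron list summed to 3660 and 4117 FPKM in mouse 1 and 3767 and 3132 FPKM in mouse 2. In mouse 3 the sums were 3284 and 3324 FPKM.

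Mature neuron genes were above 0 in 13 of 13 cases, with a median of 0.26. None was called. Ano2 stood at 0.48 with an unadjusted limma p of 0.0401, Umodl1 at 0.43 and Cnga4 at 0.40. Omp, the olfactory marker protein, averaged 2073 ± 138 FPKM closed and 1759 ± 410 FPKM open (SD, n = 3 each). The gap came from mice 2 and 3. The summed level of the list was 6183 FPKM closed and 6058 FPKM open in mouse 1, 5648 and 4327 FPKM in mouse 2, and 6621 and 5134 FPKM in mouse 3. In mouse 1 the sides differed by -0.21 in Omp, -0.11 in Cnga4, -0.06 in Ano2 and 0.11 in Umodl1. Sustentacular cell genes, of cells that also hold Sox2 and Pax6, were below 0 in 11 of 11 cases with a median of -0.13, 0 called and 0 under 0.05 unadjusted. Sult1c1 stood at -0.45, Cyp2f2 at -0.36 and Cyp2g1 at -0.27. The open library of mouse 2 stood apart, with a summed level of 9766 FPKM against 7278 and 7444 FPKM in the open libraries of mice 1 and 3, while the closed libraries had 6853 to 7203 FPKM. In Cyp2f2 the sides differed by -0.06, -0.97 and -0.04 in mice 1, 2 and 3, and in Sult1c1 by 0.04, -0.90 and -0.49. Whether shifts in the makeup of the tissue bear on the values of the 9 genes was not tested.

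Of the 19 lists, that drawn up for the Bowman's glands had the widest gap between sides, which came from 7 of its genes. Whether the gap belongs to those glands was not tested. The summed level of the list was 452.6 to 1351 FPKM closed and 3121 to 3607 FPKM open. Of 10 that reached the floor 0 were called. In limma 7 had an unadjusted p under 0.05, all lower on the closed side, against 0.866% of all rows tested. Among them were Obp1a (-4.26), Klk1 (-3.25) and Lcn11 (-4.08). This list, like the others, was chosen with earlier results of these data known. The other members were Muc5b, a mucin, at 0.0049, Aqp5, a water channel, at -0.12 and the transcription factor Sox9 at -0.16.

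Markers of cells that could bring in Kit, Trp63, Sox2 or Pax6 from elsewhere were also read. Of 13 mast cell genes, the cells of the connective tissue that carry Kit, only Hdc and Gata2 reached the floor, at log2 changes of -0.05 and 0.09. The protease genes Cma1 and Cpa3 were at most 0.811 and 0.308 FPKM, and Tpsab1 was listed at 0 in every library. Of 8 melanocyte genes Mitf alone reached the floor (-0.01), and the summed level was 2.06 to 3.12 FPKM closed and 2.68 to 3.12 FPKM open. Squamous epithelium genes, of a tissue that holds Trp63, summed to 16.4 to 19.98 FPKM closed and 15.1 to 21.0 FPKM open, with Sprr1a at -0.27, Sbsn at 0.05 and Lor at -0.04.

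Genes of ciliated and secretory respiratory epithelium summed to 801.4 to 1257 FPKM closed and 905.7 to 1489 FPKM open, with Reg3g at -0.30, Foxj1 at 0.09 and Ccdc39 at 0.08. The sums of ensheathing glia and Schwann cell genes, in a lineage that can hold Sox2, were 349.4 to 430.2 FPKM closed and 371.3 to 688.7 FPKM open, S100b standing at -0.37 and Fabp7 at -0.52. The open library of mouse 3 stood apart with the 688.7 FPKM, against 371.3 and 466.3 FPKM in the other open libraries, and Fabp7 differed by 0.27, -0.54 and -1.28 between the sides of mice 1, 2 and 3. Brain cell genes summed to 84.2 to 107.9 FPKM closed and 83.05 to 111 FPKM open, with Slc1a2 at 0.37, Gfap at -0.54 (0.69, -0.43 and -1.87 in mice 1, 2 and 3) and Cldn11 at -0.13. Microvillous cell genes summed to 124.8 to 152.1 FPKM closed and 138.8 to 157.4 FPKM open, with Cftr at -0.19, Coch at -0.12 and Pou2f3 at 0.10. Vomeronasal neuron genes, of a nearby organ that also makes neurons through Neurog1, summed to 2.60 to 5.34 FPKM closed and 3.37 to 3.87 FPKM open, nearly all of it from Trpc2 (log2 change 0.07). In these lists, from mast cells to vomeronasal neurons, 0 genes were called and 0 had an unadjusted p under 0.05.

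Genes that overlap a member could share reads with it. Cerkl, Sox2ot and Gm27005 lie on the same strand as their member, where strand marking would not separate the reads. The others named here lie on the opposite strand, and strand marking is not given in the sources used here. In the GRCm38 annotation Neurod1 overlaps Cerkl (1.24 to 3.48 FPKM), Sox2 lies within Sox2ot (0.207 to 0.628 FPKM), Pax6 overlaps the antisense gene Pax6os1 (0.175 to 0.300 FPKM), and Lgr5 overlaps A930009A15Rik (0 to 0.0482 FPKM). Each of these was lower than its partner, Cerkl over Neurod1 being the closest. Neurod1 also overlaps Gm26755, and Trp63 overlaps Gm24928 and Gm27005, for which no values were used here. Neurog1, Insm1, Hes6 and Kit overlapped no annotated gene.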

How the data were processed

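RNA-seq libraries of whole olfactory mucosa were compared, 3 of the closed and 3 of the open side of 3 mice. The deposited values are FPKM per gene, computed by the authors. The submitters' processing notes name Cufflinks and the mm9 genome without versions. Neither aligner nor annotation is given in the sources used here. Another deposited sheet holds the aligned fraction of reads (given above in percent), a score of coverage uniformity, the 28S to 18S ratio, and the score of RNA integrity, which was 10 in every library. Counting error per gene is unknown, so precision rests on the 3 libraries per side and on variance that limma shares across rows. Each SE, interval and p from limma is moderated in this way, and is not the gene's own spread alone.

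Rows whose mean reached 1 FPKM were fitted on log2(FPKM + 1) with limma 3.58.1 in R 4.3.3 (trend of variance on expression), with Benjamini-Hochberg adjustment over all 14788 rows at 0.05. The script was tested on simulated data. Log2 changes are closed minus open on that scale and understate those of low genes. A deposited sheet states that libraries of the same number share a mouse; across rows their deviations from the side means correlated at 0.149, 0.076 and 0.213, against -0.169 to 0.008 for libraries of different mice. The main fit has no block, and the mouse as a block was an alternative.

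The members and the 19 lists (277 entries, 275 with a row, 231 tested) were chosen with earlier results of these data known. Named were the 9 members, up to 3 genes of each list by calls and then by the size of the moderated t, and the 2 rows most like each member; some items under this rule are not reported here, and other genes were named after their values were seen. Promoter windows are the 250 bases before RefSeq starts, without bases under a GENCODE M21 exon where printed.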

Additional observations from a re-analysis of the deposited data

How the results depend on the processing

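Under 18 alternatives none of the 9 genes passed the adjusted threshold (adjusted p from 0.999 to 1). These were the mouse as a replicate block, pseudocounts of 0.1 and 2, no floor and a floor of 5 FPKM (which drops Lgr5), small RNA rows left out with rescaling (alone and with the block), quantile normalization, a robust variance model, and leaving out each library or each mouse. With the block the log2 changes were those of the fit without it, 0.19 for Hes6, 0.16 for Neurog1 and 0.11 for Neurod1, and it changed no call among the 9. The SE of each of the 9 was smaller with the block. It was 0.107 against 0.220 for Hes6, 0.104 against 0.168 for Neurog1, 0.095 against 0.151 for Sox2 and 0.146 against 0.151 for Lgr5. The intervals given above are those of the fit without the block and include the spread among mice. Of 161 values 146 kept their direction, and the 15 that turned did so when libraries were left out; the cause was not tested. Leaving out single libraries or mice, the log2 change ran from -0.15 to 0.16 for Insm1, from -0.0747 to 0.13 for Kit, from -0.15 to 0.0652 for Sox2, from -0.0275 to 0.0909 for Pax6, from -0.0586 to 0.18 for Lgr5, from -0.00433 to 0.38 for Hes6, from 0.0155 to 0.28 for Neurog1, from 0.0542 to 0.16 for Neurod1 and from -0.36 to -0.02 for Trp63.

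Over all rows, 6 were called lower and 1 was called higher on the closed side, and with the block 4 and 1. With no floor 3 were lower, and without small RNA rows 0 were higher, with or without the block. Leaving out libraries or mice gave 3 to 11 lower and 1 to 3 higher rows, with 3 lower without closed replicate 2 or mouse 1, 10 without closed replicate 3 and 11 without mouse 3. The count of members with an unadjusted p under 0.05 for a difference among mice was 3, against 8.65% of all rows. Without small RNA rows, an alternative chosen after seeing the data, it was 2 (Hes6 and Insm1), against 13.2% of all rows. The limma F test then gave an unadjusted p of 0.14 for Neurog1 and 0.0501 for Sox2. With 3 libraries per side, differences within the intervals given above were not excluded by the fit without the block, which had the larger SE for each of the 9. Larger differences need not pass the adjusted threshold. Obp1a, at a log2 change of -4.26, had a limma adjusted p of 0.261.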
